A study of Mus musculus with 9 samples.

Results

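The ETS transcription factors are described here in mouse bone marrow mononuclear cells of strain B6.SJL (CD45.1). The tested cells were transduced with MSCVneo-MLL-AF9 and MSCVpuro retroviruses. MLL-AF9 joins MLL, a histone methyltransferase, to AF9 and drives acute leukemia. The control cells received the empty MSCVneo and MSCVpuro retroviruses, so both groups were exposed to both vector backbones. Polyadenylated RNA was sequenced from 3 libraries per group, and the labels give neither the age of the animals nor whether libraries came from separate animals. Members were the rows of the deposited RNA table whose symbol was Ets1, Ets2, Erg, Fli1, Etv6, Elf1, Elf2, Elf4, Gabpa or Spib. All 10 were found among 22942 rows. The table holds 1 FPKM value (fragment count scaled by transcript length and by library size) per gene and group, so every level below is the authors' pooled value for MLL-AF9 or control cells. Spread between libraries and sequencing depth are unknown. A gene counted as called when its q-value in the authors' deposited table was under 0.05 and its mean over both groups was at least 1 FPKM. The log2 change is the log2 of (FPKM + 1) in MLL-AF9 cells over control cells, which understates the change of low genes.

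ETS proteins share a winged helix-turn-helix domain that binds DNA at a GGAA core. Many are present together in blood cells, and they act with other lineage factors at the same sites. Erg, Fli1, Etv6 and Gabpa are needed by blood stem cells, Ets1 and Spib are best known from lymphocytes, and the Elf proteins act in lymphoid and other blood cells. In bulk RNA, fewer cells of a type and less RNA per cell cannot be told apart.

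The promoters of the 2 called members found in the RefSeq promoter table (build GRCm38.p6) are shown with that of Gabpa, the member whose window holds every motif searched. Each sequence is the 250 bases before a transcript start, written 5′ to 3′ on the gene's strand. Capitals mark the motif GGAAGT, the ETS motif CCGGAAG or the PU.1-type motif GAGGAAGT on either strand. The motif GAGGAAGT contains GGAAGT, so those matches overlap.
Spib, chr7:44532072-44532321, - strand: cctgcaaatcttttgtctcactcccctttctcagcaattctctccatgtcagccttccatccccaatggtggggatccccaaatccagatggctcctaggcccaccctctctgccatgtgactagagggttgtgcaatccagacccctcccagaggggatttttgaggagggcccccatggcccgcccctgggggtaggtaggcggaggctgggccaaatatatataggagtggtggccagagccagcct
Elf1, chr14:79480944-79481193, + strand: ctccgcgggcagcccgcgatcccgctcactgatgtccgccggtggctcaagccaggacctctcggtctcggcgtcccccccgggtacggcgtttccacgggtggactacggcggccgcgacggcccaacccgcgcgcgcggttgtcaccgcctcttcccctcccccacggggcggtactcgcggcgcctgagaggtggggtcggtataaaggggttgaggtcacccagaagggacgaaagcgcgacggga
Gabpa, chr16:84834874-84835123, + strand: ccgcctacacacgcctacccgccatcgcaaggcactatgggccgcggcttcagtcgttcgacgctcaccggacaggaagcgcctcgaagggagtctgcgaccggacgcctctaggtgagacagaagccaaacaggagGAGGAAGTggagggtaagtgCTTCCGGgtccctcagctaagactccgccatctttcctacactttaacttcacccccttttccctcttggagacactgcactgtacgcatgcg
The Spib window holds 2 CG dinucleotides at a GC content of 58.0%. The Elf1 window holds 35 CG dinucleotides at a GC content of 71.6%, and the median over all 32851 windows of the table was 6 CG dinucleotides. None of the motifs occurs in the Spib and Elf1 windows shown. The Gabpa window holds GAGGAAGT, which 2.44% of all windows contain, and the reverse complement of CCGGAAG, which 6.91% contain. GGAAGT was found in 19.7% of all windows and, among the 8 members with a window in the table, in those of Gabpa and Elf2. Ets1 and Fli1 were not matched there. The second start listed for Elf1 has 2 CG dinucleotides in its window and none of the motifs.

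The question for these genes was which of them differed in expression between MLL-AF9 and control cells. One member, Elf1, rose and the pair Ets1 and Spib fell, while the remaining 7 members did not pass the authors' test. Of the 11538 expressed rows of the table, meaning those with a mean of at least 1 FPKM, 10.3% were called. By direction, 5.13% were called higher and 5.2% lower in MLL-AF9 cells. All 10 members reached the minimum, with levels of 3.43 to 97.6 FPKM in MLL-AF9 cells and 14.1 to 63.2 FPKM in control cells. The median log2 change of the members was 0.51, beside 0.29 over all expressed rows. That upward shift of the expressed rows is the level against which the single log2 changes are to be read.

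**Figure D1:**
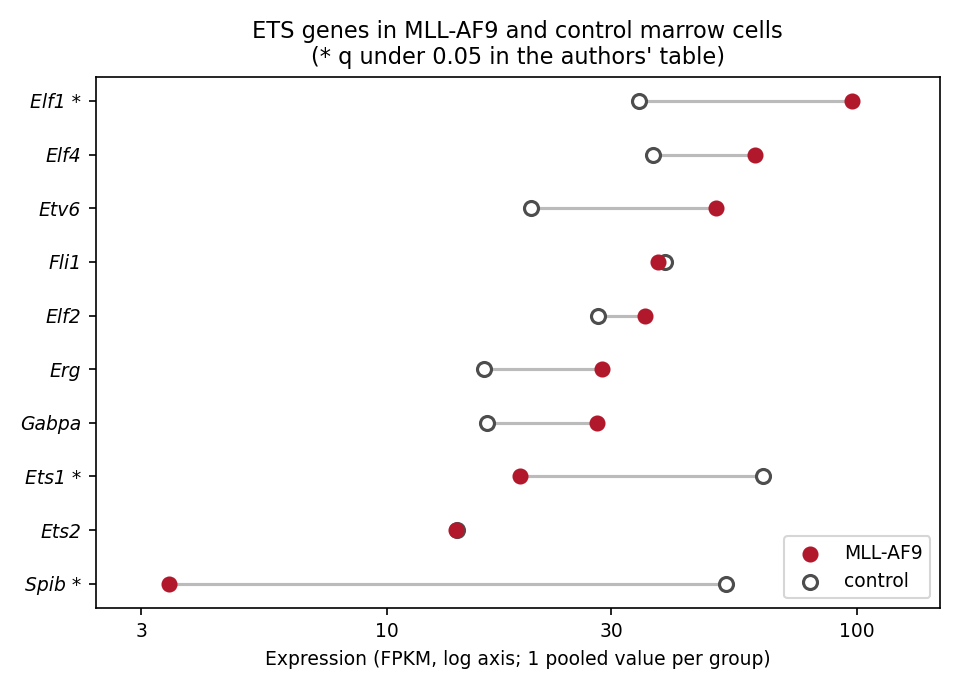
Pooled expression of the 10 ETS genes in FPKM on a log axis, with MLL-AF9 cells as filled red points and control cells as open points, ordered by the MLL-AF9 value. Elf1 stands at 97.6 against 34.4 FPKM and Spib at 3.43 against 52.6 FPKM, and the points of Ets2 and Fli1 nearly coincide.

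The order of the members by level differed between the groups. In MLL-AF9 cells Elf1 ranked highest, followed by Elf4, Etv6, Fli1, Elf2, Erg, Gabpa, Ets1, Ets2 and Spib. In control cells Ets1 ranked highest, followed by Spib, Fli1, Elf4, Elf1, Elf2, Etv6, Gabpa, Erg and Ets2. Neighbours in either order could not be tested against each other, because no spread is known. The summed level of the 10 genes was 375 FPKM in MLL-AF9 cells and 321 FPKM in control cells. Ets1 and Spib, a pair picked after their values were seen, made up 6.03% of that sum in MLL-AF9 cells and 36.1% in control cells. The other 8 members summed to 352 FPKM in MLL-AF9 cells and 205 FPKM in control cells. These and later sums were not adjusted for the upward shift of the expressed rows.

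**Figure D2:**
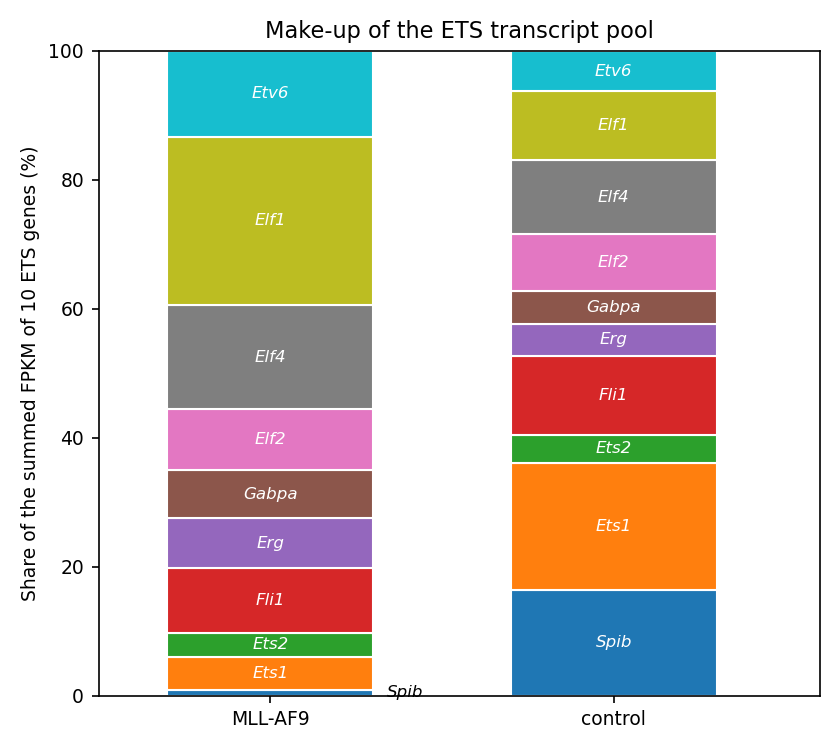
Share of each gene in the summed FPKM of the 10 ETS genes, in percent, for MLL-AF9 cells (left bar) and control cells (right bar). Elf1 takes 26.0% of the MLL-AF9 sum against 10.7% of the control sum, and Spib takes 0.916% against 16.4%.

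The 3 Elf genes were among the 5 highest of the 10 members in MLL-AF9 cells. Elf1, an activator of lymphoid and endothelial genes, stood at 97.6 FPKM in MLL-AF9 cells and 34.4 FPKM in control cells. This is 2.84-fold higher, with a log2 change of 1.48 and q = 0.0478 in the authors' deposited table, just inside the threshold. With the authors' p-values adjusted anew over all rows, Elf1 had an adjusted p of 0.0798 and was not called. Elf1 exceeded 91.1% of expressed rows in MLL-AF9 cells and 75.9% in control cells. Elf4, also named MEF, a factor that governs the resting state of blood stem cells and T cells, was listed at 60.6 FPKM in MLL-AF9 cells and 36.7 FPKM in control cells (q = 0.485 in the authors' deposited table). Elf2, a close relative of Elf1, was listed at 35.4 FPKM in MLL-AF9 cells and 28.1 FPKM in control cells (q = 0.776 in the authors' deposited table). Its log2 change of 0.32 was near the median of all expressed rows. The level of Elf1 was 2.75 times that of Elf2 in MLL-AF9 cells and 1.22 times in control cells. The 3 Elf genes together summed to 194 FPKM in MLL-AF9 cells and 99.2 FPKM in control cells, or 51.7% and 30.9% of the 10-gene sums of those groups.

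Etv6, a repressor of the TEL subfamily that is required for blood formation in marrow, had the next largest log2 change above zero. It was listed at 50.0 FPKM in MLL-AF9 cells and 20.2 FPKM in control cells, a log2 change of 1.27 that did not pass (p = 0.0119 and q = 0.0894 in the authors' deposited table). Of the corepressor genes Ncor1, Sin3a and Hdac3, through which Etv6 can act, Hdac3 alone was matched, at 37.9 FPKM in MLL-AF9 cells and 36.0 FPKM in control cells without passing.

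Erg and Fli1, the relatives that sustain blood stem cells and platelet precursors, did not pass. Erg was listed at 28.7 FPKM in MLL-AF9 cells and 16.1 FPKM in control cells, with a log2 change of 0.80 and q = 0.394 in the authors' deposited table. Fli1 was listed at 37.7 FPKM in MLL-AF9 cells and 39.0 FPKM in control cells, with a log2 change of -0.05 and q = 0.972 in the authors' deposited table. Fli1 was the higher of the pair in both groups, by a ratio of 1.32 in MLL-AF9 cells and 2.43 in control cells. Whether these ratios differ between the groups could not be tested.

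Gabpa encodes the DNA-binding subunit of GABP, which works only in complex with a beta subunit. It was listed at 28.0 FPKM in MLL-AF9 cells and 16.3 FPKM in control cells, with a log2 change of 0.74 and q = 0.424 in the authors' deposited table. The beta subunit genes did not pass either. Gabpb1 was listed at 24.7 FPKM in MLL-AF9 cells and 22.7 FPKM in control cells, and Gabpb2 at 31.3 FPKM in MLL-AF9 cells and 17.7 FPKM in control cells (q = 0.181 in the authors' deposited table). Of the 5 listed partners of GABP and Etv6, 3 were matched and none was called, with a median log2 change of 0.12. With 10.3% of all expressed rows called, no call among 3 genes does not set this list apart. Gabpb2 was the 1 gene of the 3 with an unadjusted p under 0.05, at 0.0342 in the authors' deposited table. Atp5j, the gene next to Gabpa in the RefSeq order and a subunit of mitochondrial ATP synthase, was listed at 190 FPKM in MLL-AF9 cells and 182 FPKM in control cells.

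Ets1, a regulator of T, NK and B cell development, fell to 19.1 FPKM in MLL-AF9 cells, against 63.2 FPKM in control cells. This is 3.30-fold lower, with a log2 change of -1.67 and q = 5.78e-05 in the authors' deposited table. Ets1 was the eighth of the 10 members in MLL-AF9 cells, where it exceeded 56.6% of expressed rows, and the highest in control cells, where it exceeded 86.8%. Ets2, its closest relative, which responds to RAS and ERK signalling in macrophages, was listed at 14.0 FPKM in MLL-AF9 cells and 14.1 FPKM in control cells (q = 0.997 in the authors' deposited table). The level of Ets1 was 1.37 times that of Ets2 in MLL-AF9 cells and 4.49 times in control cells. Fli1 lies next to Ets1 on chromosome 9, and Erg next to Ets2 on chromosome 16, in the RefSeq gene order of GRCm38.p6. Of these 4 neighbours Ets1 fell, and Fli1, Erg and Ets2 did not pass. The difference within a pair was not tested.

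Markers of T and NK cells were lower in MLL-AF9 cells, as were most markers of B cells, red cells and late granulocytes. All 9 T and NK markers fell, and their summed level was 27.3 FPKM in MLL-AF9 cells and 203 FPKM in control cells. None was listed at 0 in either group. Cd3d, a chain of the T cell receptor complex, stood at 0.660 FPKM in MLL-AF9 cells and 16.7 FPKM in control cells. The 9 markers were 5.31-fold to 37.7-fold lower in MLL-AF9 cells, each a larger fold than the 3.30-fold of Ets1. This is not particular to T and NK cells. All listed markers of B cells (4.74-fold to 160-fold) and late granulocytes (7.63-fold to 172-fold) exceeded it too. Red cell markers ran from 2.04-fold to 42.0-fold lower, a range that holds the fold of Ets1. The part of T and NK cells in the lower Ets1 level was not tested.

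Spib, the ETS factor of B cells and plasmacytoid dendritic cells and a close relative of PU.1, had the largest change of the members. It fell to 3.43 FPKM in MLL-AF9 cells, against 52.6 FPKM in control cells. This is 15.3-fold lower, with a log2 change of -3.60 and q = 1.62e-07 in the authors' deposited table. Spib exceeded 15.7% of expressed rows in MLL-AF9 cells and 84.3% in control cells. Of the expressed rows, 0.667% had a lower log2 change than Spib.

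**Figure D3:**
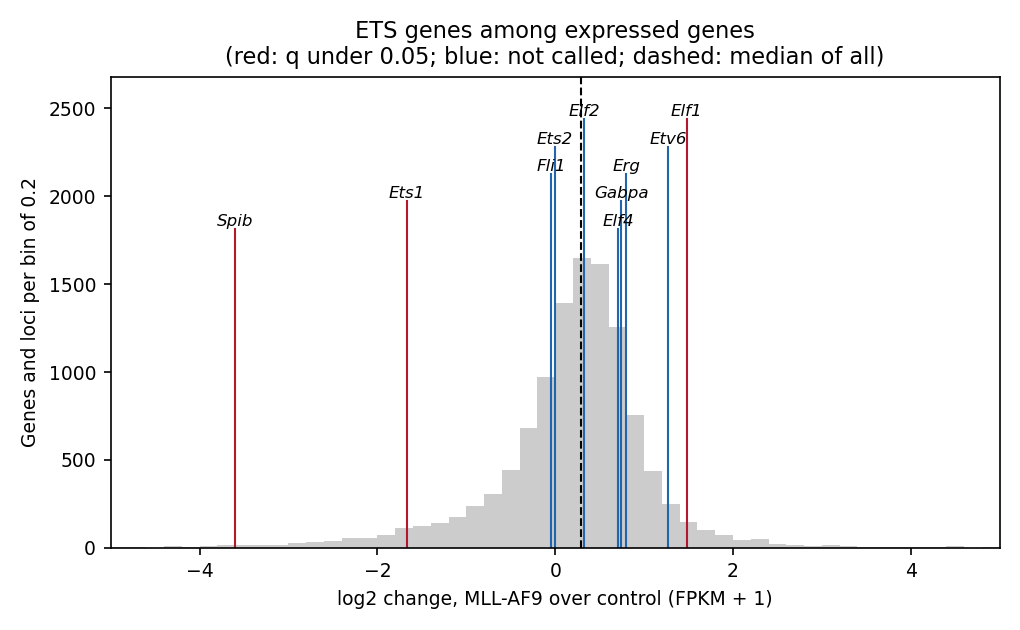
Histogram of the log2 change of 11538 expressed rows, MLL-AF9 over control, in bins of 0.2 log2 units, with the 10 ETS genes as vertical lines (red for called, blue for not called) and the median of 0.29 dashed. Spib at -3.60 and Ets1 at -1.67 lie to the left of most rows, and Elf1 at 1.48 and Etv6 at 1.27 lie to the right of most rows.

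Markers of B cells were also lower in MLL-AF9 cells. Of 7 B cell markers 6 fell and none rose, and their summed level was 36.7 FPKM in MLL-AF9 cells and 581 FPKM in control cells, with none listed at 0. The marker that did not pass was Vpreb1, at 3.50 FPKM in MLL-AF9 cells and 16.6 FPKM in control cells. Over the 7 markers the fold ran from 4.74-fold to 160-fold lower, a range that holds the 15.3-fold of Spib. Other marker lists hold it too. Their ranges were 5.31-fold to 37.7-fold for T and NK cells, 2.04-fold to 42.0-fold for red cells and 7.63-fold to 172-fold for late granulocytes. Pax5, the factor that commits cells to the B lineage, stood at 0.412 FPKM in MLL-AF9 cells and 16.3 FPKM in control cells. Markers of plasmacytoid dendritic cells were divided. Of the 5 that reached the minimum, Tcf4 rose and Ly6d fell. Siglech, their defining lectin, was listed at 11.6 FPKM in MLL-AF9 cells and 10.9 FPKM in control cells without passing. Tcf4, the E protein that directs that lineage, stood at 68.9 FPKM in MLL-AF9 cells and 6.30 FPKM in control cells. Bst2 and Klk1 did not pass, and Ccr9 was under the minimum, at 0.216 FPKM in MLL-AF9 cells and 1.52 FPKM in control cells (q = 0.0213 in the authors' deposited table). Ly6d, which B lineage cells also carry, stood at 1.70 FPKM in MLL-AF9 cells and 132 FPKM in control cells. The part of either cell type in the Spib difference was not tested.

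B cell genes listed as targets of ETS factors were lower in part. Which ETS factor acts on each of them was not examined. Of 7 such genes 5 fell, none rose, and the median log2 change was -3.45. Fcer2a, the low-affinity IgE receptor CD23, stood at 1.31 FPKM in MLL-AF9 cells and 28.7 FPKM in control cells. Cd79a, a B cell receptor component that is also on the marker list, stood at 2.97 FPKM in MLL-AF9 cells and 210 FPKM in control cells. Cd79b, which fell too, is likewise on both lists. Pou2af1, a coactivator of octamer-binding factors, stood at 0.915 FPKM in MLL-AF9 cells and 47.0 FPKM in control cells. The members that did not pass were the kinase genes Btk and Syk, which myeloid cells also express. Btk was listed at 66.8 FPKM in MLL-AF9 cells and 61.5 FPKM in control cells, and Syk at 87.8 FPKM in MLL-AF9 cells and 124 FPKM in control cells. The part of B cells in the lower levels of the other 5 was not tested.

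Lymphoid genes with ETS sites were lower in part. The list of 8 also holds Tek, an endothelial target of Elf1 that is under the minimum. Of the 8 genes, 6 reached the minimum, and of these 3 fell and none rose, with a median log2 change of -1.39. The kinase Lck, also on the T and NK marker list, stood at 1.92 FPKM in MLL-AF9 cells and 16.2 FPKM in control cells. Il2rb, a chain of the interleukin-2 receptor, stood at 1.20 FPKM in MLL-AF9 cells and 13.1 FPKM in control cells. The coreceptor Cd4 stood at 0.187 FPKM in MLL-AF9 cells and 2.76 FPKM in control cells. The part of lymphoid cells in these lower levels was not tested. Klf2, a target of Elf4 in T cells, was listed at 169 FPKM in MLL-AF9 cells and 94.2 FPKM in control cells and did not pass. Il7r and Il2ra did not pass either. Il7r was listed at 11.1 FPKM in MLL-AF9 cells and 9.05 FPKM in control cells, and Il2ra at 0.536 FPKM in MLL-AF9 cells and 2.33 FPKM in control cells. Prf1, the pore-forming protein of killer cells, had q = 0.0459 in the authors' deposited table but was under the minimum, at 0.206 FPKM in MLL-AF9 cells and 1.61 FPKM in control cells.

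Mitochondrial genes with GABP sites did not pass. Of 9 such genes none rose and none fell, and none had an unadjusted p under 0.05 in the authors' deposited table. Their median log2 change was 0.07. Over all expressed rows 10.3% were called, so no call among 9 genes does not set this list apart. Tfb2m, a mitochondrial transcription factor, was listed at 15.5 FPKM in MLL-AF9 cells and 8.09 FPKM in control cells, and Cox4i1, a cytochrome oxidase subunit, at 503 FPKM in MLL-AF9 cells and 493 FPKM in control cells. Both were chosen for mention after their values were seen.

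Platelet genes with ETS sites were few and low. Of 8 genes 7 were matched and 6 reached the minimum. Of these 1 fell, the chemokine Pf4, at 1.57 FPKM in MLL-AF9 cells and 12.2 FPKM in control cells, and none rose. The median log2 change of the 6 was -0.51. Itga2b, the platelet integrin chain, was listed at 9.57 FPKM in MLL-AF9 cells and 7.2 FPKM in control cells, without passing.

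Partners of Erg and Fli1 at stem cell enhancers were divided. Of 5 genes, 1 rose and 1 fell, with a median log2 change of 0.81. Lmo2, a bridging factor, rose to 232 FPKM in MLL-AF9 cells, against 100 FPKM in control cells (q = 0.0118 in the authors' deposited table). Tal1, the helix-loop-helix factor that Lmo2 binds, fell to 0.514 FPKM in MLL-AF9 cells, against 5.97 FPKM in control cells (q = 0.000455 in the authors' deposited table). Red cell markers, whose cells also use Tal1, fell in 5 of 6 cases, with summed levels of 13.5 FPKM in MLL-AF9 cells and 216 FPKM in control cells. The part of these cells in the lower Tal1 level was not tested. Lyl1, Gata2 and Runx1 did not pass. Gata2 was listed at 27.2 FPKM in MLL-AF9 cells and 11.2 FPKM in control cells.

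Kinase and ubiquitin ligase genes that act on ETS proteins were not called. Of 5 genes none rose and none fell, with a median log2 change of -0.31. With 10.3% of all expressed rows called, no call among 5 genes does not set this list apart. Mapk3, which encodes ERK1, was at 84.8 FPKM in MLL-AF9 cells and 198 FPKM in control cells, with an unadjusted p of 0.0217 and q = 0.135 in the authors' deposited table. It was the 1 gene of the 5 with an unadjusted p under 0.05.

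**Figure D4:**
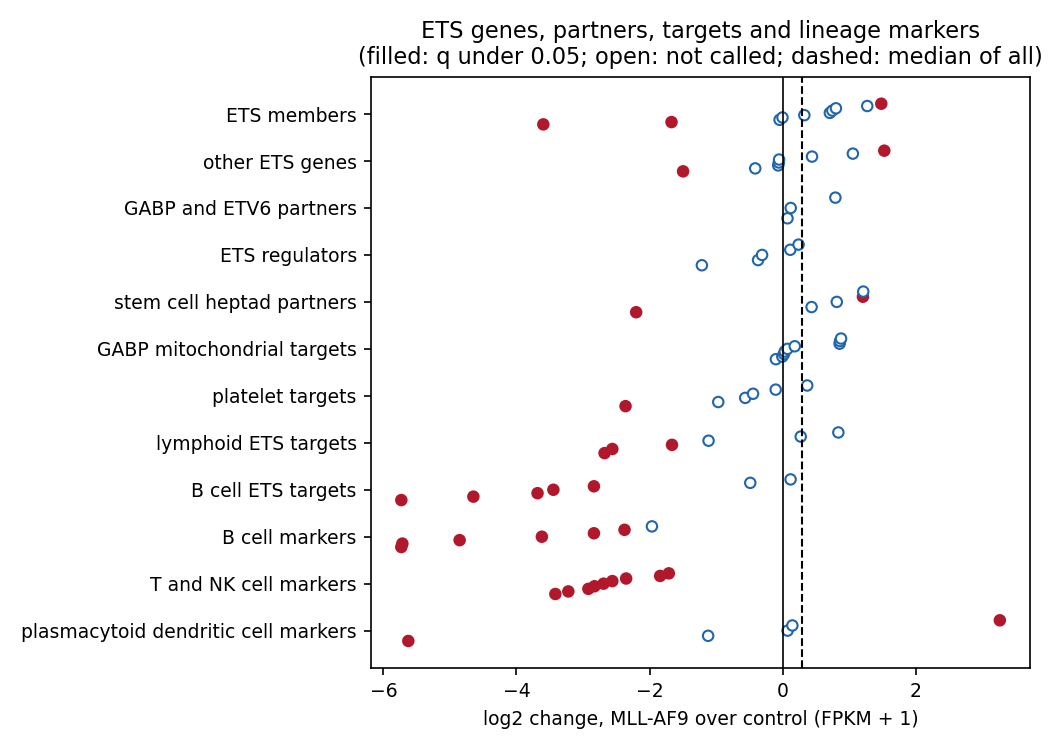
Log2 change (FPKM + 1), MLL-AF9 over control, of each gene reaching a mean of 1 FPKM in 9 gene lists and 3 marker lists, with called genes filled and others open. The B cell targets and markers lie left of zero apart from Btk, all T and NK markers lie left of zero, and the GABP mitochondrial targets lie between -0.10 and 0.87.

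The rest of the ETS family was mostly low or not called. Of the 16 other ETS genes, 8 reached the minimum, of which 1 rose and 1 fell, with a median log2 change of -0.06. Spi1, which encodes PU.1 and is listed under its older symbol Sfpi1, was the most abundant gene of the family in both groups, at 265 FPKM in MLL-AF9 cells and 353 FPKM in control cells (q = 0.741 in the authors' deposited table). It made up 38.1% of the summed level of all 26 ETS genes in MLL-AF9 cells and 49.8% in control cells. Spic, the PU.1 relative of iron-recycling macrophages, fell to 0.240 FPKM in MLL-AF9 cells, against 2.5 FPKM in control cells (q = 0.0240 in the authors' deposited table).

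Elk4, a serum response factor partner, rose 3.31-fold to 14.2 FPKM in MLL-AF9 cells, against 4.29 FPKM in control cells (q = 0.0333 in the authors' deposited table). With the authors' p-values adjusted anew over all rows, Elk4 had an adjusted p of 0.0559 and was not called. Its relatives did not pass. Elk3 was listed at 21.7 FPKM in MLL-AF9 cells and 9.94 FPKM in control cells, and Elk1 at 4.80 FPKM in MLL-AF9 cells and 5.08 FPKM in control cells. Etv4, of the PEA3 subfamily, was under the minimum, at 1.33 FPKM in MLL-AF9 cells and 0.0479 FPKM in control cells, although its q-value in the authors' deposited table was 0.00112. Etv5 of that subfamily was listed at 3.14 FPKM in MLL-AF9 cells and 2.05 FPKM in control cells, and Etv1 at 0.0399 FPKM in MLL-AF9 cells and 0.0854 FPKM in control cells. The repressors Etv3 and Erf did not pass. Etv3 was listed at 7.82 FPKM in MLL-AF9 cells against 8.17 FPKM in control cells, and Erf at 2.44 FPKM in MLL-AF9 cells against 2.58 FPKM in control cells. The epithelial genes Elf3, Elf5 and Ehf were each at or below 0.0977 FPKM in both groups, and Etv2, Fev and Spdef were listed at 0 in both.

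The labelled tissue was checked against other markers. Of 7 late granulocyte markers all fell, with summed levels of 21138 FPKM in MLL-AF9 cells and 186657 FPKM in control cells, so control cells held abundant granulocyte RNA. Of 6 mononuclear phagocyte markers none passed, with summed levels of 2590 FPKM in MLL-AF9 cells and 14380 FPKM in control cells. Most of the control sum was Lyz2, a lysozyme gene that granulocytes also express, at 890 FPKM in MLL-AF9 cells and 12233 FPKM in control cells (p = 0.0141 and q = 0.101 in the authors' deposited table). Itgam, an integrin chain that granulocytes also carry, was listed at 227 FPKM in MLL-AF9 cells and 399 FPKM in control cells (p = 0.0339 and q = 0.180 in the authors' deposited table). Csf1r, the receptor of that lineage, was listed at 82.4 FPKM in MLL-AF9 cells and 81.3 FPKM in control cells. Of 5 endothelial markers, Cdh5, Kdr, Tek and Tie1 were under the minimum, each listed lower in MLL-AF9 cells. Tie1, an endothelial receptor, stood at 0.0173 FPKM in MLL-AF9 cells and 1.19 FPKM in control cells (q = 1.62e-05 in the authors' deposited table). The remaining marker, Pecam1, which leukocytes also carry, rose to 105 FPKM in MLL-AF9 cells, against 17.1 FPKM in control cells. S100a8 alone made up 2.08% of the summed FPKM in MLL-AF9 cells and 15.4% in control cells. These sums include S100a9, listed at 10526 FPKM in MLL-AF9 cells and, as a failed estimate, at 0 in control cells. The control share of S100a8 may therefore be too high. Of 6 megakaryocyte markers, 5 were matched, all of them also among the platelet genes above. Of these 4 reached the minimum, of which Pf4 fell and none rose, with summed levels of 13.6 FPKM in MLL-AF9 cells and 23.8 FPKM in control cells. The part of these cells in the ETS differences was not tested.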

How the data were processed

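Polyadenylated RNA of 3 MLL-AF9 and 3 control libraries was sequenced as single reads of 51 bp with a kit that does not keep strand, per the labels' protocols. These protocols speak of duplicates per genotype, so the pooled values may not rest on all 3 libraries. CASAVA 1.8.2, TopHat 1.4.1 and Cufflinks 1.3.0 with build mm9 are named per the submitters' processing notes. Their settings were not given in these sources. The deposited table gives 1 value per gene and group. The header names no unit, and the authors' values were read as FPKM from the tools named and their range. The p-value and q-value per row are the authors' own, from a test that is not stated per the file headers. Since no label says that libraries came from separate animals or cultures, they may measure technical spread alone.

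No test was computed anew. The 11538 expressed rows include assembled loci without a gene name and leave out S100a9, a failed estimate listed at 0 in control cells. Genes were matched by symbol, and Spi1 by its RefSeq synonym. Members, gene lists and markers were chosen with earlier results of these data known, so a list has counts and a median and no test. Some genes of these lists are not reported here and are not counted. The rule for named genes took the 10 members, the other ETS genes and up to 3 called genes per list by smallest q-value; other list and marker genes were chosen after their values were seen. Promoter windows came from RefSeq, build GRCm38.p6. The 5hmC regions, in mm9, were not used here, since no gene coordinates of that build were at hand. Alternatives were other pseudocounts, minimums, q thresholds and scalings. The scaling step was run on data simulated with an even shift over all genes. That setting is simpler than these data, so it does not show that the scalings suit them. Tools were pandas 2.3.3, scipy 1.17.1 and numpy 2.4.6 under Python 3.11.15, with matplotlib 3.10.9 for plots.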

Additional observations from a re-analysis of the deposited data

How the results depend on the processing

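The number of ETS members called higher was 1, and it was 2 with a q threshold of 0.10, which added Etv6. It was 0 with a threshold of 0.01 and 0 when the authors' p-values were adjusted anew over all rows, an alternative chosen after seeing the data; in both cases Elf1 was lost. With adjustment over the expressed rows, also chosen after seeing the data, Elf1 had an adjusted p of 0.0493. The number called lower, Ets1 and Spib, was 2 under every alternative run. Of the 60 other list genes, 2 were higher, Elk4 and Lmo2. This became 0 with a threshold of 0.01 and 1, Lmo2, with adjustment over all rows. Without a minimum it was 3, which added Etv4. Their number of lower calls was 11, and it was 12 without a minimum, which added Prf1. It was 8 with a minimum of 5 FPKM, which lost Cd4, Spic and Tal1. With a threshold of 0.01 it was 9, which lost Pf4 and Spic.

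All 40 log2 changes of members under other pseudocounts and scalings kept their direction. A pseudocount cannot reverse a direction, so those values could not have differed in this. Median centring could reverse only a rise smaller than 0.29, and no member had one. The log2 changes ran from 1.18 to 1.5 for Elf1, from -1.97 to -1.67 for Ets1 and from -3.90 to -3.60 for Spib. The median of the members was 0.51, and it was 0.32 under quantile normalization and 0.22 with median centring. No paired analysis was possible because the table holds 1 pooled value per group, and no library could be left out for the same reason. Depth per library is unknown, so precision at low levels such as those of Spic and Etv4 is unknown too.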
